A study of Mus musculus with 2 samples.

Results

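Transcripts of the Bcl2 family, the proteins that decide whether a mitochondrion releases its death signals, were compared between the mouse epithelial cell lines Mle29c and Mlesico. A set of 10 family genes was chosen by symbol: the guardians Bcl2, Bcl2l1, Bcl2l2 and Mcl1, the effectors Bax and Bak1, and the BH3-only genes Bid, Bad, Bbc3 and Bcl2l11. All probe sets whose single annotated gene is one of these were taken, which gave 32 of the 34945 probe sets that name 1 gene, out of 45101 on the array. They cover 9 of the 10 genes. No probe set carries the symbol Bax in the annotation used here, so Bax was not analysed here and the effectors are represented by Bak1 alone.

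Each line was measured on 1 expression array, from total RNA labelled with biotin, after growth in the same serum-containing medium, with no treatment given in the labels. The study is about miR-29c, lung fibrosis and the loss and renewal of epithelium, and the labels state neither whether or how miR-29c was altered in Mle29c nor whether a line is 1 clone. The authors' values are on a log scale of unstated base, taken as log2 (with a natural log every fold would be larger), and centred on the midpoint of both arrays for each probe set. A log2 ratio here is Mle29c minus Mlesico, so that a positive one means a higher signal in Mle29c. With 1 array per line, no difference has a replicate check and none was tested. Precision is limited by the number of arrays.

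The centring removed the level of each transcript, but the rounding of the stored numbers still tells roughly how bright a probe set was. A mean log2 signal of 8 or more is called high, 4 to 8 middle and below 4 low. A class rests either on the sum of both values or on their finest step. For high and middle calls the step is the less sure basis, and high calls from the step are not firm. A gene was called measured when it had a high or middle probe set, and its value is the median of their log2 ratios. All 9 family genes passed, as did 14829 of 18193 genes. The class is no detection call, so a measured gene, such as a marker below, may still lie near background. As technical error, the spread of log2 ratios within a gene was pooled over the 6908 genes with several measured probe sets, which gave an SD of 0.62. The median SD within a gene was lower, at 0.29. In the high class alone the pooled SD was 0.43 and the median SD 0.18. All of these SDs leave out differences between cultures. Of the epithelial markers, 9 of 10 were measured, with a median log2 ratio of -0.06 and values on both sides, from the splicing regulator Esrp1 at -4.51 to the E-cadherin gene Cdh1 at 1.46. Krt8, which encodes a keratin of simple epithelia, was at 0.63, while the keratin genes Krt18 and Krt19 were at -0.20 and -0.06. Of 5 fibroblast markers 4 were measured (median 0.07), of which the collagen gene Col1a1 stood at -3.41 and the other three between 0.05 and 0.13. Of 4 endothelial markers 3 were measured (median 0.05, up to 1.40 for Vwf), with Pecam1 in the low class. Of 5 leukocyte markers 3 were measured (median 0.23, from Cd68 at -0.99 to Cd3e at 0.78), with Ptprc in the low class. The summed level of these lists in each line is not known after the centring, and the part of other cell types in the results was not tested.

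In healthy cells the guardians bind and restrain the effectors on the outer mitochondrial membrane. BH3-only proteins, which carry a single short helix of homology, are raised or activated by stress and occupy the guardians or activate the effectors. Effectors that are set free form pores, cytochrome c leaves the mitochondrion, and caspases are activated. The balance among these groups sets how easily a lung epithelial cell dies after injury. MicroRNAs of the miR-29 family recognise messages mainly through bases 2 to 8, the seed, and Mcl1 and several BH3-only genes are among their reported targets.

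The mature miR-29 sequences are given because the series is named for miR-29c. They are credited to RefSeq (GRCm38.p6) and run 5′ to 3′ with the seed in capitals.
mmu-miR-29c-3p: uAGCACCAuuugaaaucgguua
mmu-miR-29b-3p: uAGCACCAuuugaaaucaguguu
mmu-miR-29a-3p: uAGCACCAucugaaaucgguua
The 3 share the same seed. Over the shared length, miR-29a-3p differs from miR-29c-3p at 1 base and miR-29b-3p at 3 bases. The array gave no value for the mature miRNAs, and the 3′ ends of the family messages were not searched for seed matches.

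Promoters are given for the members with the highest and the lowest gene value, Bcl2 and Bid, and for Bcl2l11 and Bbc3, which are known targets of Foxo transcription factors. Each covers 250 bases before to 50 after an annotated start (RefSeq, GRCm38.p6), reads 5′ to 3′ on the gene's strand, and has in capitals any match to the motifs searched.
Bcl2 (chr1:106714241-106714540, minus strand): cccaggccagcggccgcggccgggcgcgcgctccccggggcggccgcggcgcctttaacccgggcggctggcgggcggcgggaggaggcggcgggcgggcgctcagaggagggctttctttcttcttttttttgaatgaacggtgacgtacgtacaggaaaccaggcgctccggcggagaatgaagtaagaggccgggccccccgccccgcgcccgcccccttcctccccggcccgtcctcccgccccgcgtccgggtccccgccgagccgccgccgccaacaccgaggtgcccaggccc
Bid (chr6:120916775-120917074, minus strand): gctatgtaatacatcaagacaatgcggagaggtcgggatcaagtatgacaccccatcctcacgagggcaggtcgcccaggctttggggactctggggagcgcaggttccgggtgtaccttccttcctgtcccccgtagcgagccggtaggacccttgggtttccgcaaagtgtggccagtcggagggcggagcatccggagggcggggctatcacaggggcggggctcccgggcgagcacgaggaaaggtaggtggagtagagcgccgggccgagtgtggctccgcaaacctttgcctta
Bcl2l11 (chr2:128125788-128126087, plus strand): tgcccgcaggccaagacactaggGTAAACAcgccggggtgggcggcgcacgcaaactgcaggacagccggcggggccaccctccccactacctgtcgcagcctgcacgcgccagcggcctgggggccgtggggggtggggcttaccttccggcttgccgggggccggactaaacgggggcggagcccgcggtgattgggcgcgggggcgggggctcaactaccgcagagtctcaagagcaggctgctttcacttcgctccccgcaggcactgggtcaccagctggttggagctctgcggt
Bbc3 (chr7:16310011-16310310, plus strand): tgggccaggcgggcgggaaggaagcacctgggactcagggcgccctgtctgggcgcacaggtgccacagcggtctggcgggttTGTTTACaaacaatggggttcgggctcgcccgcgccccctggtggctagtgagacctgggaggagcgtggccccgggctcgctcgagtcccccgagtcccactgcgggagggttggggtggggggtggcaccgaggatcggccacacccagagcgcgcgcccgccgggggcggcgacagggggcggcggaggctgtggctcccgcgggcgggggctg
Searched on both strands were the FOXO motif GTAAACA, the CREB motif TGACGTCA, the E-box CACGTG, the E2F motif TTTGGCGC and the p53 half-site, and no overlap between matches of different motifs occurred in these 4 windows. The FOXO motif was in the Bcl2l11 window shown and, as its reverse complement, in the Bbc3 window shown. Of the 2 Bcl2l11 windows and 3 Bbc3 windows, the one with this match was chosen for printing, and the other ones lack it. It was in 3.65% of all 32851 promoter windows of this length, against 1.79% for the CREB motif, 7.15% for the E-box, 0.51% for the E2F motif and 8.36% for the p53 half-site. The Bcl2 and Bid windows held none of the motifs. Over all 10 genes there were 16 windows, of which 4 held a match; the remaining ones were a window of Bax with 2 E-boxes and a p53 half-site and another window of Bbc3 with an E-box. A match describes these letters and is no evidence of binding.

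None of the 9 family genes differed by 2-fold or more in either direction, on an array where 15.6% of measured genes did (8.4% higher in Mle29c and 7.18% lower). The count became 1 if the values are natural logs (Bcl2 higher in Mle29c, at 1.24) and 1 if only level classes from the sum are used (Bcl2l2 lower, at -1.14). The share of all measured genes under these 2 settings was not computed. Bcl2, the founding guardian, had the highest value, at a log2 ratio of 0.86, and Bid, the BH3-only gene that links death receptors to mitochondria, the lowest, at -0.66. The other 7 lay between -0.36 and 0.27. The median of the 9 was 0.10, against 0.00 for all measured genes. Of the 9, 5 were above 0 and 4 below, against 50.4% of all measured genes above 0. Read against that 15.6%, 0 of 9 genes does not set the family apart.

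**Figure D1:**
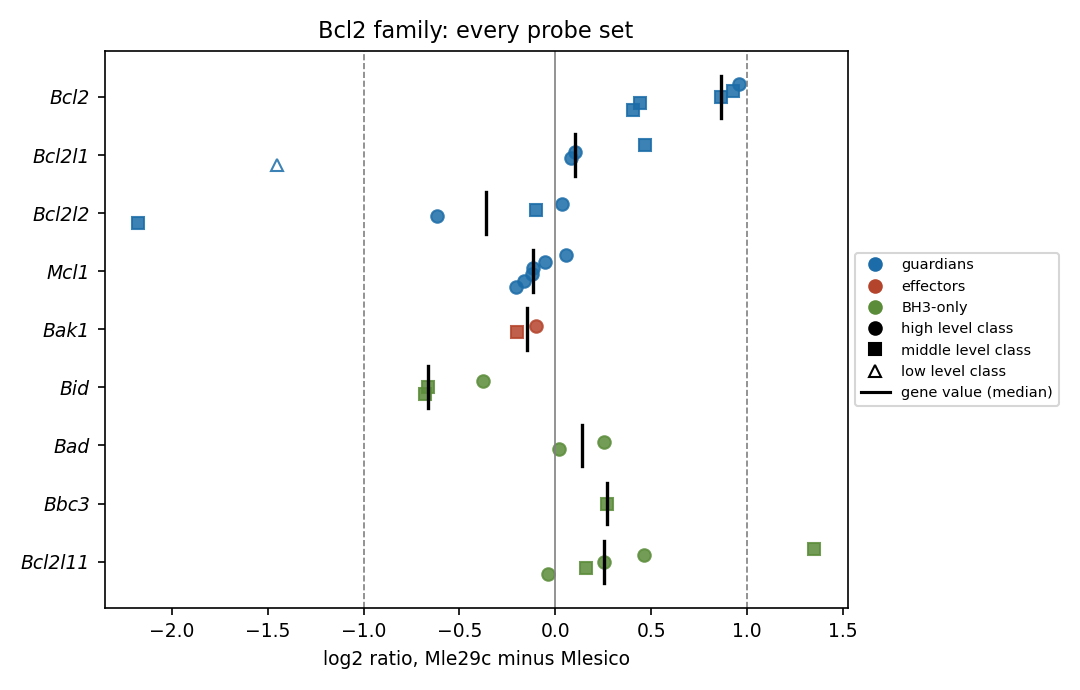
Log2 ratio (Mle29c minus Mlesico) of each of the 32 probe sets of the 9 family genes with a probe set; colour gives the role, shape the level class, and the black bar the gene value. All 5 Bcl2 probe sets lie to the right of 0 and all 3 Bid probe sets to the left, while Bcl2l2 reaches from -2.18 to 0.03; dashed lines mark 2-fold.

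The guardians went both ways. Bcl2, which lies on chromosome 1 (106538176 to 106714290, GRCm38.p6), had centred log2 signals with a median of 0.43 in Mle29c and -0.43 in Mlesico over 5 probe sets. Its log2 ratios were 0.41, 0.44, 0.86, 0.93 and 0.96, so every probe set was brighter in Mle29c, and the ratios formed a lower pair and an upper trio. The median of 0.86 is a 1.82-fold higher signal, with a technical SE of 0.28 if each probe set carries the pooled error. The technical SEs given here are the pooled SD over the square root of the number of probe sets. That is the SE of a mean of independent values, so for a median it is only a rough guide. In such bulk RNA, fewer cells with a transcript and less of it per cell cannot be told apart. Of all measured genes, 89.7% had a lower ratio. Of the trio, 1 probe set was in the high class and 1 in the middle class, each by its step. The remaining one and the lower pair were in the middle class by the sum. With only the 3 probe sets whose class rests on the sum, the value was 0.44.

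Bcl2l1 encodes Bcl-xL and, by splicing, the shorter Bcl-xS, and lies on chromosome 2 (152758732 to 152833803). Its centred signals had a median of 0.05 in Mle29c and -0.05 in Mlesico, and its 3 measured probe sets had log2 ratios of 0.08, 0.10 and 0.47. The arrays were nearly equal in the first 2 of these, which were designed on the same sequence record. A probe set of another record stood at -1.45. It was in the low class, where 57.7% of probe sets naming 1 gene were past 2-fold, and it was left out of the gene value of 0.10.

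Mcl1, which encodes a guardian of short half-life, was even over many probe sets. It lies on chromosome 3 (95656944 to 95663179), and its centred signals had a median of -0.06 in Mle29c and 0.06 in Mlesico. Its 6 probe sets, all in the high class, had log2 ratios of -0.21, -0.16, -0.12, -0.12, -0.05 and 0.06. Their SD was 0.09, and only 1.3% of the 154 genes with 6 measured probe sets had a smaller one. The probe sets of those genes could be high or middle class, and high-class ones agree more closely on this array. The gene value of -0.12 is a 1.09-fold lower signal in Mle29c.

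Bcl2l2 encodes Bcl-w and lies on chromosome 14 (54883366 to 54890858). Its probe sets did not agree. Those designed on one sequence record had log2 ratios of 0.03 and -0.10, near equality, while those of another record had -0.62 and -2.18. The probe set at -2.18 had centred signals of -1.09 in Mle29c and 1.09 in Mlesico, was in the middle class and is 1 of 2 guardian probe sets past 2-fold, the other being the low-class one of Bcl2l1. The SD over the 4 was 1.01, above that of 93.3% of the 774 genes with 4 measured probe sets. The gene value of -0.36 is therefore a midpoint between records that differ, and 49.6% of measured genes had a ratio closer to 0. It was -0.72 as a mean over probe sets, -1.14 from the 2 probe sets whose class rests on the sum, and -0.03 from the 2 left without those that can match several transcripts or genes.

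Bak1, the effector that sits permanently in the outer mitochondrial membrane, lies on chromosome 17 (27019812 to 27028627). Its centred signals had a median of -0.07 in Mle29c and 0.07 in Mlesico, and its 2 probe sets had log2 ratios of -0.10 and -0.20. The gene value of -0.15 is a 1.11-fold lower signal in Mle29c, well inside the technical SE of 0.44 for 2 probe sets.

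Among the BH3-only genes, Bid was lower in Mle29c in each of its probe sets. Caspase-8 cleaves its protein, and the fragment activates the effectors. Bid lies on chromosome 6 (120893119 to 120917062). Its centred signals had a median of -0.33 in Mle29c and 0.33 in Mlesico, and the log2 ratios were -0.68, -0.66 and -0.38. The gene value of -0.66 is a 1.58-fold lower signal, with a technical SE of 0.36. Chromosome 6 as a whole, with 772 measured genes, was shifted to a median of 0.32, and against that median Bid stood at -0.99.

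Bad, which binds guardians when survival kinases leave it unphosphorylated, lies on chromosome 19 (6941861 to 6951905). Its centred signals had a median of 0.07 in Mle29c and -0.07 in Mlesico, with log2 ratios of 0.02 and 0.25 in 2 high-class probe sets. Chromosome 19, with 521 measured genes, stood at a median of 0.27, and relative to it the Bad value changed sign, from the plain 0.14 to -0.13. Bad was the only member whose sign depended on a setting.

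Bbc3 encodes Puma, a p53-induced killer, and lies on chromosome 7 (16308398 to 16318334). It was measured by a single middle-class probe set, with a centred signal of 0.13 in Mle29c and -0.13 in Mlesico and a log2 ratio of 0.27. No agreement between probe sets can be given for it.

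Bcl2l11 encodes Bim, which binds all guardians, and lies on chromosome 2 (128126038 to 128162547). Its centred signals had a median of 0.13 in Mle29c and -0.13 in Mlesico, and its 5 probe sets had log2 ratios of -0.04, 0.16, 0.26, 0.46 and 1.35. Of these, 4 were brighter in Mle29c. The probe set at 1.35 is the only one of the 32 past 2-fold upwards, and it is in the middle class by its step. It was designed on the same sequence record as the one at -0.04, a gap of 1.38, and 94.0% of the 2431 same-record pairs of measured probe sets had a smaller gap. The corresponding gap in the discordant Bcl2l2 pair was 1.56, above 95.2% of the pairs. The gene value of Bcl2l11 was 0.26, a 1.19-fold higher signal in Mle29c.

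The annotated spans of Bcl2, Bcl2l1, Bak1, Bid, Bad and Bcl2l11 each overlap at least 1 other gene, and which probes lie in the shared stretches was not tested.

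**Figure D2:**
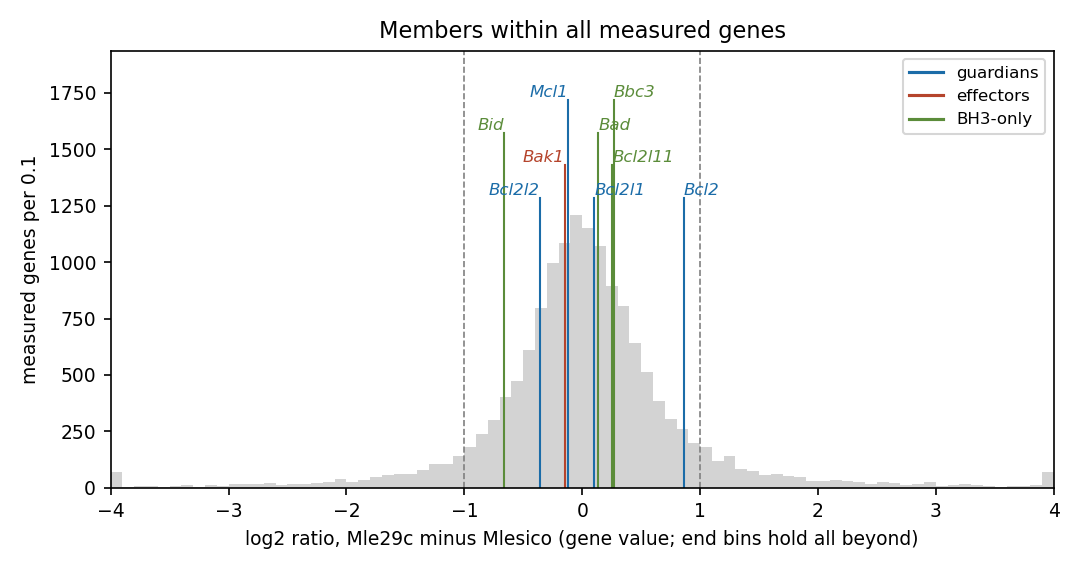
Number of measured genes per 0.1 of log2 ratio (Mle29c minus Mlesico, grey) with the gene values of the 9 family genes as coloured lines by role. All 9 lines stand between the dashed 2-fold marks, from Bid at -0.66 to Bcl2 at 0.86.

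Set side by side, the roles overlapped. The 4 BH3-only genes had a median log2 ratio of 0.20 and ranged from -0.66 to 0.27, with 3 above 0. The single effector stood at -0.15. The 4 guardians had a median of -0.01 and ranged from -0.36 to 0.86, with 2 above 0. The BH3-only median was 0.21 above the guardian median, and the order turned round with level classes from the sum alone, at 0.09 for BH3-only genes and 0.10 for guardians. Over probe sets, 7 of 11 were above 0 for BH3-only genes, 0 of 2 for the effector and 10 of 19 for guardians. The share of all probe sets above 0 was not computed. Of the 31 probe sets in the high or middle class, 1 was past 2-fold upwards in Mle29c (Bcl2l11) and 1 downwards (Bcl2l2), against 15.2% of the 27376 such probe sets naming 1 gene (7.89% higher and 7.29% lower).

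Because each value is a ratio of the same 2 arrays, members can also be set against each other. The Bcl2 ratio exceeded that of Bid by 1.53 on the log2 scale, which means that the balance of Bcl2 to Bid signal was 2.88-fold higher in Mle29c, with a technical SE of 0.45 in log2. These are the highest and lowest members and were paired after their values were seen. Bcl2 exceeded Mcl1 by 0.98 (technical SE 0.37), Bcl2l1 by 0.76 (0.45), Bad by 0.73 (0.52), Bcl2l11 by 0.61 (0.39) and Bbc3 by 0.59 (0.68). As Bcl2 is the highest member, these differences are all positive by construction, and the technical SEs are no test of them. Bcl2l2 and Bak1 were not paired with it.

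The members also differed in how well their probe sets agreed. Bak1, Bid, Bad, Bcl2l1 and Bcl2 had SDs between 0.07 and 0.27, with a single sign over the measured probe sets of each gene. Of the 351 genes with 5 measured probe sets, 30.2% had ratios of a single sign, as Bcl2 did. The share was 51.7% for the 1786 genes with 3, as Bid and Bcl2l1 had, and 66.2% for the 3744 genes with 2, as Bak1 and Bad had. Mcl1, Bcl2l11 and Bcl2l2 had probe sets on both sides of 0. The Mcl1 ratios straddled 0 within a range of 0.26, whereas those of Bcl2l11 spanned 1.38 with an SD of 0.54 and those of Bcl2l2 spanned 2.21.

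**Figure D3:**
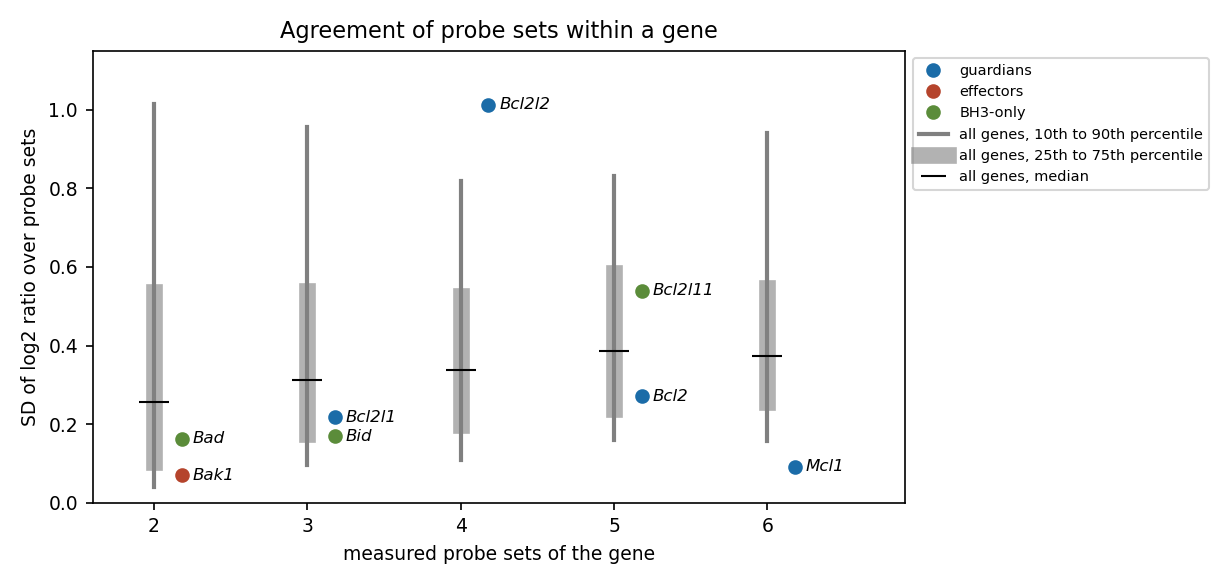
SD of the log2 ratio over the measured probe sets of a gene, by the number of such probe sets; grey bars give the spread over all genes with as many, points the 8 family genes with 2 or more. Mcl1 at 0.09 lies below the range of its bar and Bcl2l2 at 1.01 above it.

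The other family genes were measured as well, in lists chosen with earlier results of these arrays known. Of 16 other Bcl2 family genes 11 were measured, 3 reached 2-fold upwards in Mle29c, none reached it downwards, and 9 were above 0, with a median log2 ratio of 0.59. On the array as a whole 8.4% of measured genes reached 2-fold upwards and 7.18% downwards. Of all measured genes, 50.4% were above 0, and their median was 0.00. Bok, an effector relative that acts without Bak and Bax, stood at 1.998 from 1 probe set, in the high class by its step. Bnip3, a BH3-only relative that responds to low oxygen and marks mitochondria for removal, stood at 1.39 from 1 probe set. Bik, a BH3-only protein of the endoplasmic reticulum, stood at 1.88 in its single measured probe set, also high by its step. Its 2 low-class probe sets stood at -1.17 and -1.75. High calls from the step are not firm, so neither is the count past 2-fold. Bmf, which is released from the cytoskeleton, was at 0.53 over 2 probe sets, with a low-class one at -0.95, and Bcl2l14 at 0.80, from 0.16 and 1.43. Pmaip1, which encodes the Mcl1 antagonist Noxa, had a single probe set, in the low class, at -5.88, with centred signals of -2.94 in Mle29c and 2.94 in Mlesico. Its size is not firm, since weak signals vary widely, and it was not counted as measured. The class rests on the mean of both arrays, so a gene with signal in 1 line alone can fall in the low class. Whether this holds for Pmaip1 was not tested.

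Downstream of the mitochondrion, of 12 measured genes of the apoptosome and of released factors and their inhibitors, 1 was at least 2-fold higher in Mle29c and 1 lower (median log2 ratio 0.11), against 8.4% and 7.18% of all measured genes. Endog, a mitochondrial endonuclease, stood at 2.03 with probe sets at 1.61 and 2.45. The inhibitor of apoptosis gene Birc3 stood at -2.46 from 1 probe set, middle class by its step, with a low-class one at 0.09. Middle calls from the step are less sure than those from the sum, so its place among the measured genes is not firm. Cytochrome c, from Cycs, stood at 0.69 over 4 probe sets, between 0.61 and 0.86, and Apaf1, its partner in the apoptosome, at -0.19, from -0.59 and 0.20. None of 14 mitochondrial partners was past 2-fold (median -0.02), against 15.6% of all measured genes, and they ran from Sh3glb1, a membrane-bending partner of Bax, at -0.37 to the prohibitin gene Phb2 at 0.73.

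Among 14 measured transcription factors that act on family genes 2 passed 2-fold upwards in Mle29c and none downwards (median 0.11), against the same 8.4% and 7.18%. Foxo1, which in other cells switches on Bcl2l11 and Bbc3, stood at 2.20. Its 3 measured probe sets ran between 2.11 and 2.25, with a low-class one at -0.41. Bcl2l11 and Bbc3 stood at 0.26 and 0.27, and any link of Foxo1 to them was not tested. Foxo3 stood at -0.08, but its 3 probe sets disagreed, at -2.13, -0.08 and 0.33. Mitf, a known activator of Bcl2 in melanocytes, stood at 1.23 from 1 probe set, with a low-class one at -1.38. Of 23 measured regulators of the member proteins 3 were higher and none lower (median 0.02), against the same 8.4% and 7.18%. The 3 were the kinase genes Pim1 at 1.25, Akt2 at 1.19 and Pim3 at 1.05, whose products phosphorylate Bad. Their probe sets ran between 0.997 and 1.496 for Pim1, 0.28 and 1.38 for Akt2, and 0.28 and 1.34 for Pim3. The related kinase genes Akt1 and Pim2 stood at 0.44 and -0.12. The lowest of the 23 was Usp9x, whose product removes ubiquitin from Mcl1, at -0.60, with probe sets between -1.04 and 0.61. Of the list genes named here, Bik and Pim3 lie on chromosome 15, whose measured genes stood at a median of 0.36, and Bcl2l14, Cycs, Phb2 and Mitf on chromosome 6, at 0.32; the part of these shifts was not tested. Over all 6 lists, 9 of 74 measured genes reached 2-fold upwards and 1 downwards, or 13.5% in either direction, near the 15.6% of the array.

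**Figure D4:**
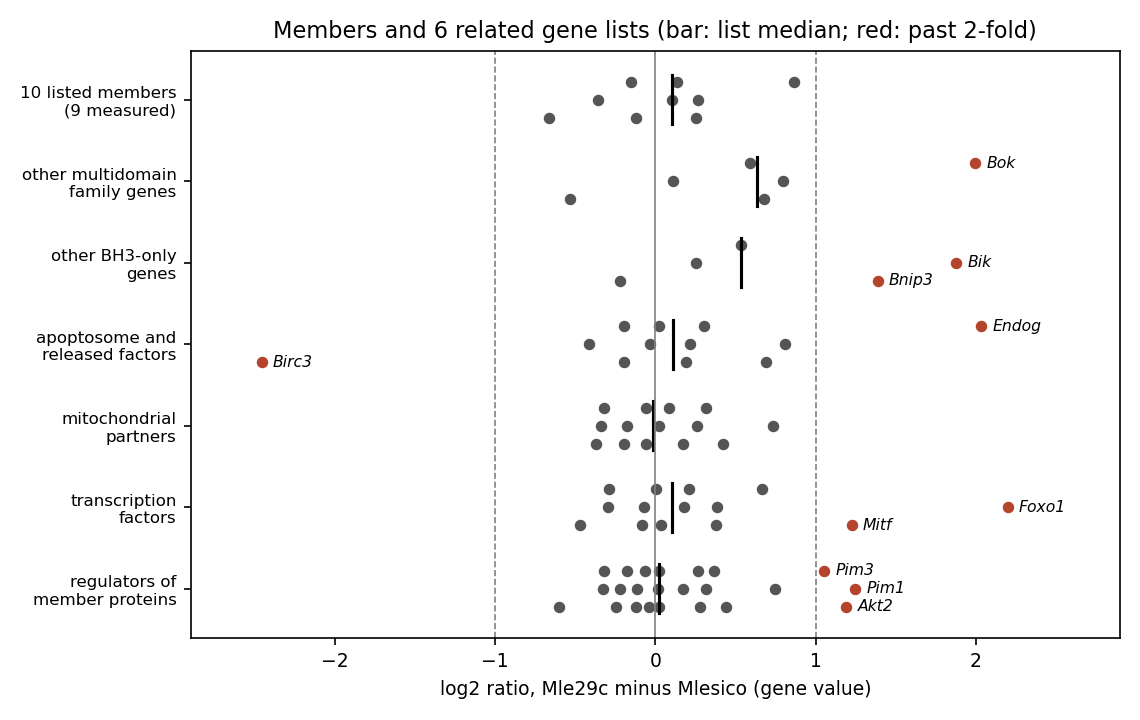
Gene values (log2 ratio, Mle29c minus Mlesico) of the 9 measured members and of 6 related lists, each point a measured gene, the black bar the list median, red and a name marking genes past 2-fold. No member is red, and the 9 red points to the right and 1 to the left belong to the related lists.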

How the data were processed

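Both samples were measured on 1 array each. The authors' deposited values are log2 values in this reading, the base not being stated, made with MAS5 per the submitters' processing notes (version not given in the sources used here) and centred so that both values of a probe set sum to 0 within 1e-06. Columns were matched by sample name. Single-gene probe sets were taken from the 2016 platform annotation, with symbols updated through RefSeq (GRCm38.p6) for 34741 of 34945.

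Level classes came from single-precision rounding: a nonzero sum of both values gives the class, and where the sum is 0 the finest step does. The recovery was tested on simulated data. The sum was the surer basis for high and middle calls but not for low ones, and high calls from the step were the least sure. Python 3.11.15, numpy 2.4.6 and pandas 2.3.3 were used.

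All members were named, with list genes past 2-fold or, where none was, the highest and lowest. Bcl2l14, Bmf, Pmaip1, Cycs, Apaf1, Foxo3, Akt1, Pim2, Usp9x and the markers were named after their values were seen. Members and lists were chosen with earlier results of these data known. Floor, class, summary, probe-set type, chromosome centring, log base and threshold were varied. No test was possible with 1 array per line.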

Additional observations from a re-analysis of the deposited data

How the results depend on the processing

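The count of members at least 2-fold higher in Mle29c, 0, became 1 with a natural log in place of log2 (Bcl2, at 1.24) and 1 at a 1.5-fold threshold (Bcl2). The count at least 2-fold lower, also 0, became 1 with the class from the sum alone (Bcl2l2, at -1.14, from 2 probe sets) and 1 at 1.5-fold (Bid). Fewer probe sets, another base or another threshold enter these by construction. The share of all measured genes at these settings was not computed, so these counts say nothing about the members as a set. Both counts stayed at 0 with every probe set kept, in the high class alone, with the mean over probe sets, without shared probe sets and after subtracting chromosome medians. Under the alternatives the BH3-only median lay between 0.06 and 0.28, the effector between -0.22 and -0.10 and the guardian median between -0.01 and 0.10, so the sign of the guardian median is not settled. Of 62 gene values under alternatives, 1 changed sign, Bad after subtracting the chromosome median. A change of log base cannot change a sign, which leaves 53 values. Several settings also kept the same probe sets of a gene, so many of these could not change sign either. The count is therefore no measure of how stable the signs are. Bcl2 ranged from 0.44 to 1.24, Bid from -0.99 to -0.38 and Bcl2l2 from -1.14 to -0.03. No paired analysis was possible because each line has 1 array, and no replicate could be left out. Signal over background is not known beyond the level class, which limits what the low-class probe sets can show.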
